A study of Zea mays with 18 samples.

Results

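The genes described here serve phosphate transport and the response to phosphate starvation. They were taken from the deposited table of maize root expression as every annotated gene whose description held 1 of 8 phrases: phosphate transporter 1-, inorganic phosphate transporter, SPX domain, purple acid phosphatase, PHO1, PHOSPHATE STARVATION RESPONSE, glycerophosphodiester phosphodiesterase or sulfoquinovosyl. This gave 107 members of the 55661 features, and 74 of them had at least 1 FPKM (fragments per kilobase of gene, scaled to library size) in at least 3 of the 18 libraries. Their protein names are those of matched UniProt entries, 63 of them from *Arabidopsis thaliana* and 39 from rice, so the roles given below are mostly known from those species.

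The plants were the inbred line B73 (WT) and *zmccd8*, a line with a Ds transposon inserted in *ZmCCD8* in the B73 background. *ZmCCD8* encodes the carotenoid cleavage dioxygenase that acts in strigolactone synthesis. Roots were collected from plants grown in vermiculite for 4 weeks under water stress (WS), nitrogen deficiency (0N) or control supply (CT), with 3 biological replicates for each of the 6 groups. CT plants received full Hoagland solution regularly, and 0N plants received it with KCl in place of the 1 mM KNO3. WS plants were watered with the full solution once, at transplanting, so water and every nutrient including phosphate stopped together and their contributions cannot be told apart. The mutant is a single insertion line.

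Plant roots take up inorganic phosphate through PHT1 proton symporters of the plasma membrane, PHO1 proteins export it into the xylem, and SPX-MFS membrane proteins move it across the vacuolar membrane. PHR transcription factors turn on the genes of phosphate starvation, and SPX proteins bind PHR and hold it back while phosphate is plentiful. Starved roots also release phosphate from organic compounds with purple acid phosphatases, break down phospholipid head groups with glycerophosphodiester phosphodiesterases (GDPD), and replace phospholipids by sulfolipid, whose last step is catalysed by SQD2.

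The reads rebuilt from the FPKM values came to 30104083 to 43429912 per library. *ZmCCD8* (Zm00001eb153000) had 27.4, 24.3 and 18.1 FPKM in *zmccd8* under WS, against 10.7, 9.22 and 8.85 in WT under WS. Under 0N it had 17.6, 9.47 and 19.3 FPKM in *zmccd8*, against 70.9, 64.1 and 47.8 in WT, and under CT 16.6, 5.63 and 8.22 in *zmccd8*, against 5.80, 8.76 and 4.17 in WT. A value over the whole gene counts reads on both sides of an insertion, so it does not check the genotype labels, and genotypes are given as labelled. Of the 45 Casparian strip proteins and their relatives in the annotation, 30 to 32 were at 1 FPKM or more in each group, and their summed FPKM was 234 to 285 in *zmccd8* under WS and 273 to 284 in WT under WS, against 435 to 631 under 0N and 558 to 799 under CT in both genotypes. Over 37 leaf genes (Rubisco small subunit and chlorophyll-binding proteins) the sum was 20.7 to 39.5 FPKM in WT under WS and 8.01 to 15.4 in WT under 0N, against 45.5 to 113 in WT under CT, while the 3 *zmccd8* groups lay between 6.69 and 28.4. The part of these shifts in the results below was not tested. In bulk roots, fewer cells of a type and less RNA per cell cannot be told apart.

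Under WS, phosphate genes fell more often than they rose in both genotypes. The PHT1 transporter with the highest mean level, *pht9*, fell by more than 100-fold, another PHT1 gene that was nearly silent in CT roots appeared, and a GDPD1 gene (Zm00001eb241920), GDPD2, 1 of 3 tested SQD2 genes and most called purple acid phosphatases fell, while 3 SPX membrane proteins rose in *zmccd8* and 2 in WT. In *zmccd8*, 5 of the 74 tested members were higher and 16 were lower under WS than under CT. Over all 27530 features tested, 6.24% were called higher and 10.3% lower, and the members' shares were 6.76% and 21.6%. In WT, 5 members were higher and 17 lower, against 7.41% and 10.4% of all features. The median log2 difference was -0.41 over the members in *zmccd8* and -0.33 in WT, with medians over all features within 0.01 of 0. These calls came from limma on log2(FPKM + 1) where the Benjamini-Hochberg adjusted p over all features tested did not exceed 0.05 and the log2 difference reached 1 in either direction, and all log2 differences below are on that scale, which understates the change of low genes. The calls shared by the genotypes were 15 of those lower (93.8% of the *zmccd8* list and 88.2% of the WT list) and 3 of those higher (60.0% of each).

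Under 0N almost every called member was lower. In *zmccd8*, 16 members were lower and 0 higher, while 5.63% of all features were called lower and 1.74% higher. Of the 74, 42 had an unadjusted p under 0.05 in limma, a share not taken over all features here or below. Voom on the rebuilt reads called 18 members lower and 2 higher, against 1877 and 951 of all 27530 features. In WT, limma called 15 members lower and 1 higher, against 2.82% and 1.94% of all features. The median log2 difference of the members was -0.39 in *zmccd8* and -0.10 in WT. The genotypes shared 11 of the lower calls, 68.8% of the *zmccd8* list and 73.3% of the WT list. The members lower in both were the PHT1 gene *pht7*, 3 GDPD genes, 2 SPX membrane proteins, 2 SPX proteins and 3 purple acid phosphatases.

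The 0N counts rested on few libraries. In *zmccd8*, 4 members were called without replicate 1 of 0N, 5 without replicate 1 of CT and 5 without replicate 3 of CT, and leaving out any of the other libraries gave 13 to 21. In WT, leaving out replicate 1, 2 or 3 of 0N gave 4, 6 and 4 calls, and leaving out replicate 1, 2 or 3 of CT gave 8, 9 and 7. Over all 27530 features the 0N calls in *zmccd8*, 2029 in all, moved alike. They numbered 189 without replicate 1 of 0N, 173 without replicate 1 of CT and 119 without replicate 3 of CT, and otherwise 505 to 2707. In WT they numbered 326, 728 and 605 without replicate 1, 2 or 3 of 0N, and 982, 1147 and 676 without those of CT. All member calls lost in either genotype were lost without replicate 1 of 0N. They were also lost without replicate 3 of CT in *zmccd8* and without replicate 3 of 0N in WT. The calls that stood in each of the 6 fits were *pht2*, *pht7*, GDPD6 and the SPX membrane protein Zm00001eb250590 in *zmccd8*, and *pht7*, GDPD1 (Zm00001eb241920) and the SPX membrane proteins Zm00001eb250590 and Zm00001eb269520 in WT. The WS counts moved less, between 18 and 22 in *zmccd8* and between 19 and 24 in WT, and the calls lost there were Zm00001eb378430, Zm00001eb303290, Zm00001eb410860, Zm00001eb232000, Zm00001eb421880 and SPX3 in *zmccd8*, and Zm00001eb105030, Zm00001eb410860, Zm00001eb269520 and Zm00001eb086210 in WT.

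**Figure D1:**
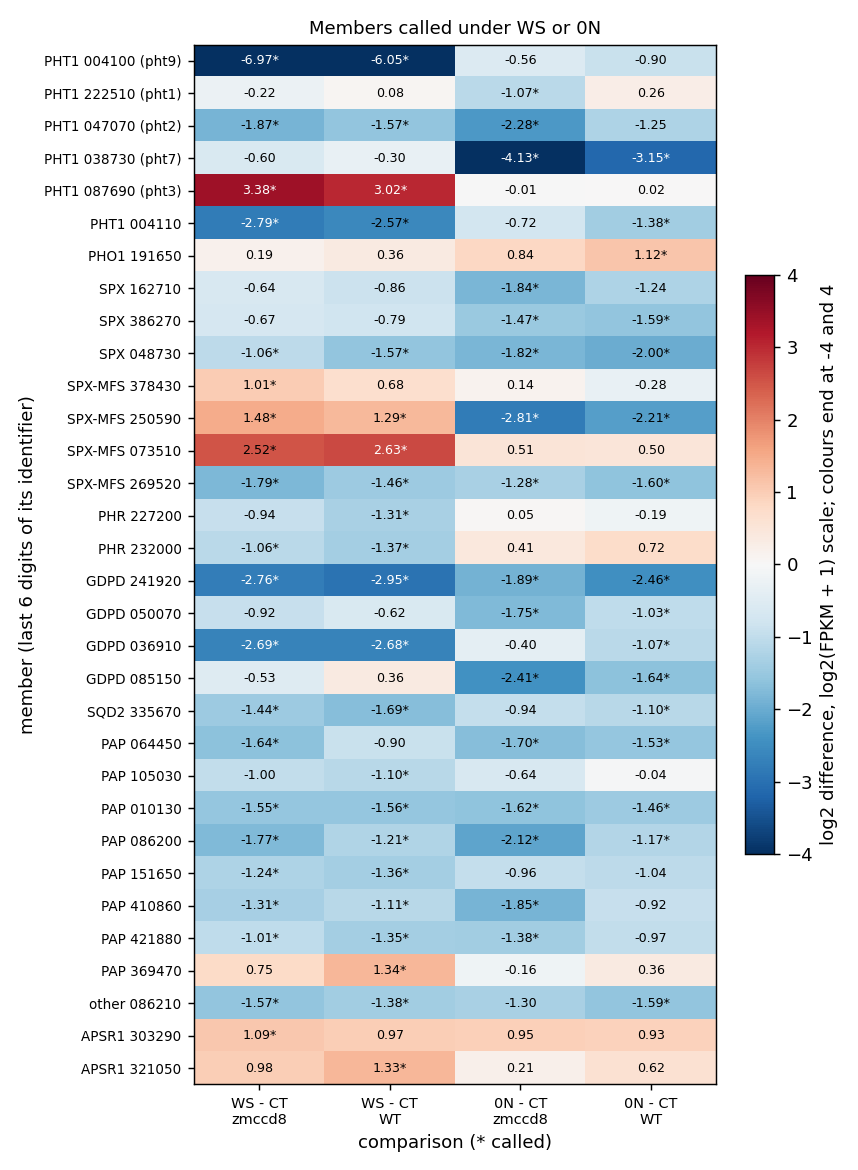
Log2 differences (WS or 0N minus CT, on the log2(FPKM + 1) scale) of the 32 members called in at least 1 comparison with CT, ordered by role, with WS on the left, 0N on the right and *zmccd8* left of WT within each. An asterisk marks a call, colours end at -4 and 4, and most rows are blue in all 4 columns, with *pht9* at -6.97 and -6.05 under WS, *pht7* at -4.13 and -3.15 under 0N, and the SPX membrane protein Zm00001eb250590 higher under WS and lower under 0N.

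Of the 18 PHT1 transporters, 10 passed the filter, and 5 of those carried nearly all of the expression. The summed FPKM of the 18 genes was 99.0 ± 1.48 under WS, 210 ± 85.4 under 0N and 393 ± 58.6 under CT in *zmccd8*, and 85.2 ± 2.15, 148 ± 6.42 and 266 ± 110 in the same order in WT (mean ± SD, n = 3). The leading gene also differed. *pht9* made up 0.860% of the PHT1 sum under WS, 79.1% under 0N and 58.1% under CT in *zmccd8*, and 1.55%, 50.7% and 55.7% in WT, while *pht1* led under WS, with 44.2% in *zmccd8* and 48.3% in WT.

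*pht9* (Zm00001eb004100, annotated as inorganic phosphate transporter 1-2, minus strand of chromosome 1, 11304260 to 11306250) had 0.966, 0.354 and 1.23 FPKM under WS, 85.6, 242 and 170.5 under 0N, and 275, 221 and 188 under CT in *zmccd8*. In WT it had 0.608, 0.460 and 2.89 FPKM under WS, 77.9, 55.9 and 90.6 under 0N, and 102, 232 and 111 under CT. Every WS library was below every other library of its genotype. Its mean was 268-fold lower under WS than under CT in *zmccd8* (log2 difference -6.97, SE 0.22, adjusted p = 6.7e-06 by limma and Benjamini-Hochberg) and 112-fold lower in WT (-6.05, SE 0.46, adjusted p = 0.00029). Under 0N the difference from CT was not called in either genotype (-0.56 with adjusted p = 0.30 in *zmccd8* and -0.90 with adjusted p = 0.14 in WT, limma).

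*pht7* (Zm00001eb038730, annotated as 1-6, minus strand of chromosome 1, 206928381 to 206930810) went the other way round. It had 19.7, 21.9 and 21.2 FPKM under WS, 1.54, 0.454 and 0.836 under 0N, and 33.2, 40.3 and 25.0 under CT in *zmccd8*. WT roots had 21.3, 9.08 and 19.4 FPKM under WS, 1.57, 1.17 and 1.21 under 0N, and 15.8, 29.9 and 15.6 under CT. All 0N libraries were below all CT and WS libraries of both genotypes. The 0N mean was 34.8-fold lower than the CT mean in *zmccd8* (-4.13, SE 0.27, adjusted p = 0.0029 in limma) and 15.5-fold lower in WT (-3.15, SE 0.27, adjusted p = 0.005). Under WS the log2 difference from CT was -0.60 in *zmccd8*, past the adjusted p (0.032, limma) but under the limit of 1, and -0.30 in WT with adjusted p = 0.56.

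*pht3* (Zm00001eb087690, annotated as 1-4, minus strand of chromosome 2, 101799882 to 101801910) was found almost only in WS roots. It had 11.3, 8.57 and 9.14 FPKM in *zmccd8* and 5.78, 4.93 and 13.0 FPKM in WT under WS, from 436 to 953 rebuilt reads per library. In the other 12 libraries it had 0 to 6 rebuilt reads and at most 0.0811 FPKM. Its log2 difference from CT was 3.38 (SE 0.15) in *zmccd8* and 3.02 (SE 0.32) in WT, with adjusted p = 2.6e-05 and 0.001 in limma. These sizes depend on the pseudocount because CT was near 0. *pht3* passed the filter through its WS libraries alone, so these p-values add no support beyond the levels themselves.

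*pht1* and *pht2*, both annotated as 1-8, shared neither pattern. *pht2* (Zm00001eb047070, plus strand of chromosome 1, 242288483 to 242290940) had 15.8, 17.9 and 18.8 FPKM under WS, 10.9, 14.3 and 13.7 under 0N, and 75.2, 51.3 and 76.4 under CT in *zmccd8*. WT roots had 17.1, 13.4 and 13.4 FPKM under WS, 20.9, 31.5 and 9.26 under 0N, and 49.3, 68.2 and 27.1 under CT. WS libraries lay below CT libraries in both genotypes, and the 0N libraries overlapped CT in WT only. The WS differences were -1.87 (SE 0.17) in *zmccd8* and -1.57 (SE 0.32) in WT, and the 0N difference of -2.28 (SE 0.19, adjusted p = 0.0054 in limma) was called in *zmccd8*, while in WT it was -1.25 with adjusted p = 0.15. *pht1* (Zm00001eb222510, plus strand of chromosome 5, 33267448 to 33269832) had 18.9, 27.4 and 26.4 FPKM in *zmccd8* under 0N, against 58.2, 52.0 and 44.7 under CT, groups that did not overlap. WT roots had 43.0, 62.8 and 34.2 FPKM under 0N, against 36.4, 50.8 and 29.0 under CT, which overlapped. Its 0N difference was -1.07 (SE 0.18, adjusted p = 0.024 in limma) in *zmccd8*, a call lost without replicate 1 of 0N or replicate 1 or 3 of CT, and 0.26 in WT. The interaction of genotype with 0N was -1.32 with adjusted p = 0.17, the lowest among the members and not called. Under WS *pht1* had 43.0 to 44.2 FPKM in *zmccd8* and 30.3 to 54.5 in WT, and its log2 differences from CT were -0.22 and 0.08.

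Some PHT1 genes were annotated as pairs on opposite strands. The libraries kept strand, but whether the counting used it is not given in the sources used here, so reads of partners cannot be told apart. Zm00001eb004110 covers *pht9* on the plus strand and had at most 6.34% of the FPKM of *pht9* where that was at 1 FPKM or more. It was at 0 FPKM in all 6 WS libraries, against 2.51 to 8.74 FPKM in CT libraries of both genotypes. The partners of *pht7*, *pht1* and *pht3* had medians of 2.55%, 3.27% and 1.72% of their levels. The other PHT1 genes were faint: *pht13* and *pht12* (Zm00001eb087720 and Zm00001eb087740) had 0.365 to 2.91 and 0 to 1.43 FPKM, and the 8 below the filter included *pht6* (Zm00001eb359490), annotated after the rice transporter 1-11 that is known from mycorrhizal roots, at 0 to 0.581 FPKM. The chloroplast transporter 2-1 (Zm00001eb245920) had at most 0.374 FPKM.

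**Figure D2:**
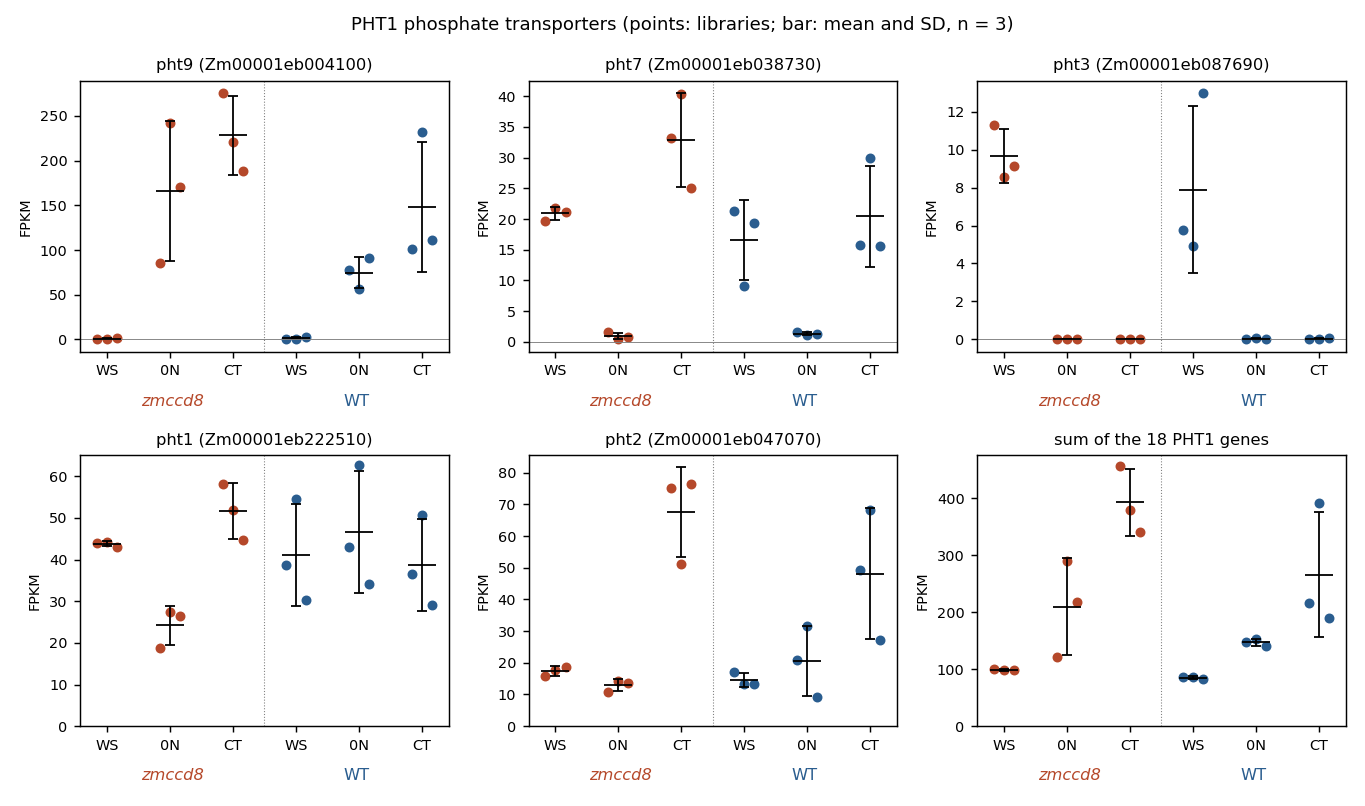
FPKM of 5 PHT1 genes and of the sum over the 18 PHT1 genes in each library (points), with the mean and SD of 3 libraries (bars), *zmccd8* left of WT and WS, 0N and CT from left to right. *pht9* was near 0 under WS, *pht7* near 1 FPKM under 0N, and *pht3* was above 4 FPKM in the 6 WS libraries alone.

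None of the 3 tested PHO1 genes, which load phosphate into the xylem, was called under WS with limma (1 with an unadjusted p under 0.05 in each genotype), and voom on the rebuilt reads called 1 lower in each. That gene was PHO1-1 (Zm00001eb126380), with 1.32, 1.38 and 1.07 FPKM in *zmccd8* under WS, against 3.58, 2.43 and 3.66 under CT, and 2.43, 2.18 and 2.11 FPKM in WT under WS, against 3.85, 5.58 and 4.73 under CT. The groups did not overlap in either genotype, and the log2 differences of -0.89 (SE 0.18) and -0.81 (SE 0.17) passed the adjusted p (0.008 and 0.011, limma) but not the limit of 1. Zm00001eb258520 (PHO1-2, minus strand of chromosome 5, 223477062 to 223482483) was the member with the highest mean of all 107, at 146 FPKM over the 18 libraries, and its log2 differences from CT lay between -0.10 and 0.04 under WS and 0N. The second PHO1-2 gene, Zm00001eb191650 (plus strand of chromosome 4, 177072303 to 177077688), was the only member called higher under 0N by limma. Voom also called an APSR1 gene (Zm00001eb303290) in both genotypes and a purple acid phosphatase (Zm00001eb292020) in *zmccd8*, and did not call this gene in *zmccd8*. It had 41.3, 33.5 and 60.5 FPKM in WT under 0N, against 20.1, 21.3 and 17.7 under CT, groups that did not overlap (log2 difference 1.12, SE 0.22, adjusted p = 0.034 in limma). That call was kept in 1 of 6 fits without 1 library, the one without replicate 2 of 0N. In *zmccd8* it had 16.4, 31.7 and 27.6 FPKM under 0N, against 17.0, 11.9 and 11.2 under CT, and the difference of 0.84 was not called (adjusted p = 0.07, limma).

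Among the SPX membrane proteins, 1 gene was called in opposite directions under WS and 0N. Zm00001eb250590 (annotated after the rice protein OsI_08463, plus strand of chromosome 5, 203933413 to 203939066) had 44.7, 38.6 and 27.6 FPKM under WS, 0.701, 1.22 and 0.864 under 0N, and 10.4, 17.2 and 10.6 under CT in *zmccd8*. In WT it had 25.2, 26.8 and 18.8 FPKM under WS, 1.43, 0.976 and 1.07 under 0N, and 6.10, 11.6 and 10.04 under CT. The 3 treatments did not overlap in either genotype. Against CT it was higher under WS (log2 difference 1.48, SE 0.24 in *zmccd8* and 1.29, SE 0.25 in WT) and lower under 0N (-2.81, SE 0.24 in *zmccd8* and -2.21, SE 0.25 in WT), and these 4 calls stood in every fit without 1 library.

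Zm00001eb073510 (after OsI_17046, minus strand of chromosome 2, 16976540 to 16983872) had 15.6, 19.1 and 24.01 FPKM under WS, against 2.45, 2.07 and 3.22 under CT in *zmccd8*. WT roots had 24.4, 18.6 and 43.9 FPKM under WS, against 3.95, 3.44 and 3.32 under CT. The groups did not overlap, and the means were 7.59-fold higher under WS in *zmccd8* and 8.11-fold higher in WT (log2 differences 2.52, SE 0.20 and 2.63, SE 0.30, adjusted p = 2e-04 and 0.0012 in limma). Under 0N its differences were 0.51 and 0.50 and were not called.

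The 2 SPX membrane proteins annotated after OsI_21475 moved apart from each other. Zm00001eb269520 (plus strand of chromosome 6, 73120956 to 73127338) had 3.26 to 3.92 FPKM under WS and 4.99 to 6.83 under 0N, against 11.7 to 19.5 under CT in *zmccd8*, and 3.83 to 12.6 and 5.15 to 5.68 FPKM, against 16.1 to 21.5 in WT. It was called lower in all 4 comparisons (log2 differences -1.28 to -1.79), but the WS call in WT stood only without replicate 3 of WS, and the 0N call in *zmccd8* was kept in 2 of 6 fits without 1 library. Zm00001eb378430 (minus strand of chromosome 9, 26399586 to 26406430) had 76.1, 68.1 and 48.4 FPKM in *zmccd8* under WS, against 29.0, 25.5 and 39.5 under CT. These groups did not overlap, and the difference of 1.01 (SE 0.22, adjusted p = 0.011 in limma) was close to the limit of 1 and kept in 2 of 6 fits. In WT the difference was 0.68 and was not called.

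SPX proteins, which lack a membrane part and bind PHR factors, were lower under 0N. Of the 5 tested, 3 were called lower in *zmccd8* and 2 in WT. SPX6 (Zm00001eb162710, minus strand of chromosome 3, 233209864 to 233211272), with the highest mean of the 7, had 17.6, 42.0 and 20.4 FPKM in *zmccd8* under 0N, against 92.9, 74.2 and 110 under CT (-1.84, SE 0.33, adjusted p = 0.026 in limma). Levels in WT were 42.7, 31.7 and 27.4 FPKM under 0N, against 55.1, 134 and 70.5 under CT, where the difference of -1.24 was not called (adjusted p = 0.069, limma). The groups did not overlap in either genotype.

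SPX1 (Zm00001eb386270, minus strand of chromosome 9, 94721831 to 94730660) had 8.79, 12.4 and 9.12 FPKM in *zmccd8* under 0N, against 30.6, 23.9 and 35.0 under CT, and 12.5, 9.81 and 6.17 FPKM in WT under 0N, against 23.6, 40.0 and 27.3 under CT. Both differences, -1.47 (SE 0.19) and -1.59 (SE 0.29), were called, without overlap. The calls were kept in 3 of 6 fits without 1 library in *zmccd8* and in 1 of 6 in WT. Under WS this gene was also below CT without overlap, at 17.4 to 19.3 FPKM in *zmccd8* and 13.6 to 18.8 in WT, and was not called. SPX3 (Zm00001eb048730, minus strand of chromosome 1, 250483707 to 250485347) was low throughout, with 0.0407 to 0.0642 FPKM under 0N and 0.721 to 0.813 under WS, against 1.42 to 4.23 under CT in *zmccd8*, and 0.0792 to 0.118 under 0N and 0.322 to 0.751 under WS, against 1.84 to 4.65 under CT in WT. It was called lower in all 4 comparisons, with means under 0N that were 57.3-fold lower in *zmccd8* and 34.4-fold lower in WT. SPX3 passed the filter through its CT libraries alone. The 0N libraries held 2 to 6 of its rebuilt reads each, so these ratios carry a wide counting error. A gene for a translation factor overlaps it on the opposite strand.

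**Figure D3:**
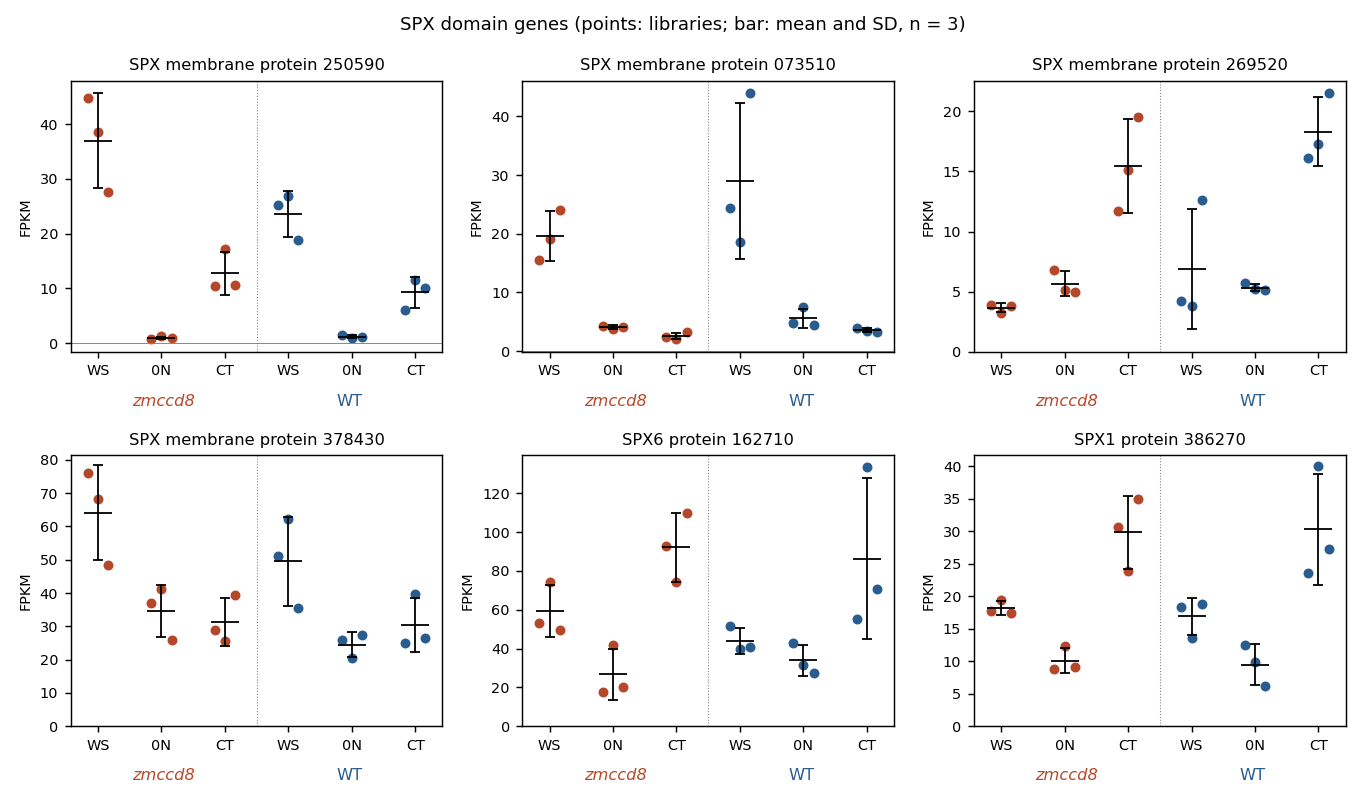
FPKM of 4 SPX membrane proteins and 2 SPX proteins in each library (points), with the mean and SD of 3 libraries (bars), *zmccd8* left of WT and WS, 0N and CT from left to right. Member Zm00001eb250590 was above CT under WS and near 1 FPKM under 0N in both genotypes, Zm00001eb073510 was highest under WS, and Zm00001eb269520 was highest under CT.

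PHR factors, the activators of the starvation genes, were not called under 0N. PHR1 (Zm00001eb015750, plus strand of chromosome 1, 54499121 to 54505877) had the highest mean of the 5, with 31.8 to 38.0 FPKM under WS and 40.7 to 51.6 under 0N, against 31.2 to 39.8 under CT in *zmccd8*, and 27.9 to 31.5 and 38.4 to 41.9 FPKM, against 38.1 to 40.5 in WT. The PHR3 gene Zm00001eb232000 (minus strand of chromosome 5, 79860957 to 79863896) had 1.66, 3.22 and 2.12 FPKM in *zmccd8* under WS, against 5.44, 4.10 and 8.75 under CT, and 1.32, 2.57 and 1.55 FPKM in WT under WS, against 6.84, 8.30 and 3.99 under CT. Neither pair of groups overlapped, and the differences of -1.06 (SE 0.28) and -1.37 (SE 0.29) were called, with adjusted p = 0.025 and 0.011 in limma, the call in *zmccd8* in 2 of 6 fits without 1 library. The PHR3 gene Zm00001eb227200 (plus strand of chromosome 5, 59947715 to 59951700) was called lower under WS in WT (-1.31, SE 0.16), and in *zmccd8* its difference of -0.94 had adjusted p = 0.0012 in limma and fell short of the limit of 1.

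Among the 7 GDPD genes, which split glycerophosphodiesters into glycerol-3-phosphate and an alcohol, the one with the highest level under CT fell under both treatments in both genotypes. GDPD1 (Zm00001eb241920, minus strand of chromosome 5, 168019341 to 168023851) had 31.7, 30.3 and 23.6 FPKM under WS, 37.1, 86.9 and 45.6 under 0N, and 195, 150 and 266 under CT in *zmccd8*. In WT it had 43.2, 38.5 and 49.2 FPKM under WS, 89.1, 70.8 and 36.4 under 0N, and 299, 354 and 381 under CT. All treated libraries were below all CT libraries of both genotypes. The means under WS were 7.13-fold lower in *zmccd8* and 7.90-fold lower in WT, and the means under 0N were 3.60-fold and 5.26-fold lower in the same order, and all 4 were called (log2 differences -2.76, -2.95, -1.89 and -2.46). The 0N call in *zmccd8* was lost without replicate 1 of 0N or without replicate 1 or 3 of CT.

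The remaining called GDPD genes differed in the treatment under which they were called. GDPD2 (Zm00001eb036910, plus strand of chromosome 1, 199461576 to 199466659) had 2.14, 2.49 and 2.26 FPKM in *zmccd8* under WS, against 18.1, 22.0 and 20.7 under CT, and 2.58, 2.40 and 3.02 FPKM in WT under WS, against 20.4, 26.4 and 21.1 under CT. It was 8.81-fold and 8.48-fold lower (log2 differences -2.69, SE 0.13 and -2.68, SE 0.15), and under 0N it was called in WT (-1.07, a call lost in every fit without 1 library) and not in *zmccd8* (-0.40). A second GDPD1 gene, Zm00001eb085150 (minus strand of chromosome 2, 68991625 to 68996526), was low under 0N instead. It had 3.09, 4.93 and 3.50 FPKM under WS, 0.121, 0.563 and 0.230 under 0N, and 7.29, 3.83 and 7.12 under CT in *zmccd8*, and 5.11, 6.31 and 4.02, then 0.377, 0.676 and 0.526, then 3.73, 6.07 and 2.17 FPKM in WT. The 0N libraries did not overlap CT, with differences of -2.41 (SE 0.27) and -1.64 (SE 0.30), and the WS differences of -0.53 and 0.36 were not called. GDPD6 (Zm00001eb050070, plus strand of chromosome 1, 255334346 to 255337046) had 9.46 to 11.2 FPKM in *zmccd8* under 0N, against 32.6 to 41.2 under CT (-1.75, SE 0.13), and 12.0 to 17.4 FPKM in WT, against 25.9 to 39.3 (-1.03, SE 0.20, kept in 1 of 6 fits). None of the 8 GDPD-like genes, relatives that in *Arabidopsis* act at the cell wall, was called in a comparison with CT under limma (of the 6 tested, 4 had an unadjusted p under 0.05 under 0N in each genotype, and 2 in *zmccd8* and 1 in WT under WS). With voom, 1 was lower in *zmccd8* under each treatment. The highest of them, Zm00001eb034650 (GDPDL4, plus strand of chromosome 1, 191288833 to 191292355), had 12.7 to 45.3 FPKM over the 18 libraries.

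SQD2 has 4 members, 3 of them tested, and 1 was called lower under WS. Zm00001eb335670 (plus strand of chromosome 8, 14182221 to 14188503) had 18.9, 21.1 and 16.2 FPKM under WS, 21.5, 41.8 and 21.3 under 0N, and 54.6, 41.1 and 63.5 under CT in *zmccd8*. In WT it had 17.3, 13.6 and 16.5 FPKM under WS, 26.6, 21.4 and 24.7 under 0N, and 41.1, 79.7 and 45.4 under CT. The WS libraries lay below the CT libraries in both genotypes (-1.44, SE 0.18 and -1.69, SE 0.26, adjusted p = 0.0012 and 0.0035 in limma). The 0N difference was -0.94 in *zmccd8*, where 1 library overlapped CT, and -1.10 in WT, a call with adjusted p = 0.049 in limma that was lost in each of the 6 fits without 1 library. A second SQD2 gene, Zm00001eb011720 (plus strand of chromosome 1, 38215197 to 38221063), was not called. In *zmccd8* it had 19.8, 20.3 and 18.0 FPKM under WS and 19.7, 20.8 and 19.2 under 0N, against 14.0, 15.8 and 13.1 under CT. The treated libraries were all above CT, and the differences of 0.42 (SE 0.11) and 0.45 (SE 0.12) passed the adjusted p (0.026 and 0.047, limma) but not the limit of 1, while in WT they were 0.11 and 0.17.

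Purple acid phosphatases formed the largest family, with 35 members and 22 tested. Under WS, 6 were called lower and 0 higher in *zmccd8* (limma, 16 of the 22 with an unadjusted p under 0.05, and 6 lower and 2 higher with voom), and 6 were lower and 1 higher in WT. Under 0N, 5 were lower in *zmccd8* and 3 in WT, and 0 were higher in either (limma, 13 and 8 with an unadjusted p under 0.05, and 1 and 0 higher with voom). Of all 27530 features, voom called 3649 lower and 2497 higher under WS in *zmccd8*. Under 0N it called 951 higher in *zmccd8* and 891 in WT. Purple acid phosphatase 3 (Zm00001eb010130, plus strand of chromosome 1, 31986778 to 31989589) was called lower in all 4 comparisons. It had 23.2, 18.7 and 20.1 FPKM under WS, 14.0, 33.4 and 16.0 under 0N, and 64.8, 47.4 and 79.1 under CT in *zmccd8*, and 22.7, 14.9 and 17.9, then 19.1, 25.3 and 15.6, then 47.1, 90.4 and 40.5 FPKM in WT. No treated library reached a CT library of its genotype, and the 4 differences lay between -1.46 and -1.62. The 0N call in WT was lost in each of the 6 fits without 1 library and that in *zmccd8* in 4 of 6.

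Member 27 of the family (Zm00001eb086200, plus strand of chromosome 2, 80878644 to 80884486) was also called in all 4 comparisons. Its 0N call was kept in 0 of 6 fits without 1 library in WT and in 2 of 6 in *zmccd8*. The gene had 9.37 to 16.2 FPKM under WS and 6.12 to 12.4 under 0N, against 27.3 to 65.4 under CT in *zmccd8*. In WT it had 11.7 to 19.0 and 10.1 to 18.7 FPKM, against 33.6 to 37.2. A fragment annotated as a nucleotide pyrophosphatase (Zm00001eb086210), which entered through the domain in its description, lies within it on the other strand, had at most 14.5% of its FPKM and was called lower with it under WS. Purple acid phosphatase 15 (Zm00001eb064450, minus strand of chromosome 1, 305028838 to 305031500) had 25.3 to 39.7 FPKM under WS and 18.8 to 42.1 under 0N, against 86.1 to 110 under CT in *zmccd8* (-1.64, SE 0.19 and -1.70, SE 0.28). In WT it had 33.7 to 61.9 and 22.7 to 35.1 FPKM, against 64.6 to 123, and the WS difference of -0.90 was not called.

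**Figure D4:**
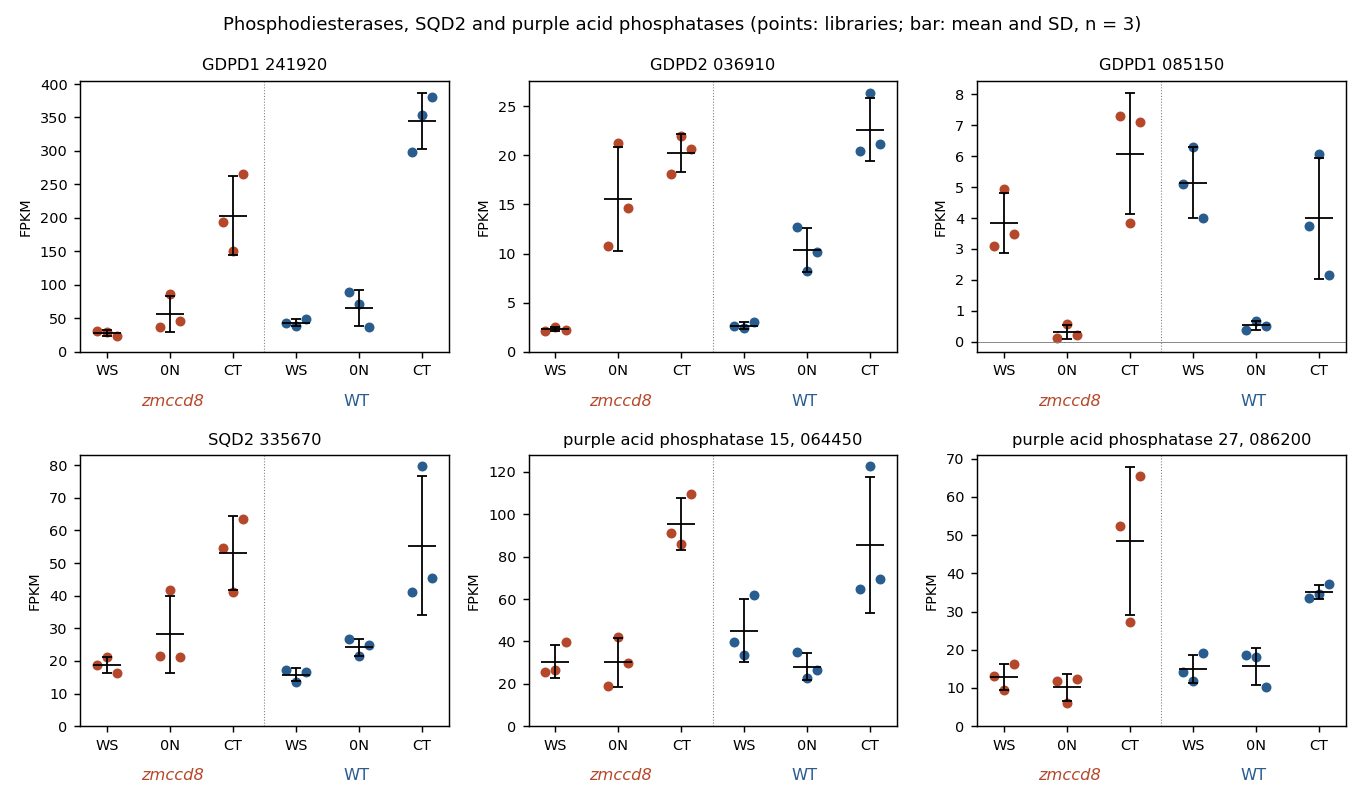
FPKM of 3 GDPD genes, SQD2 and 2 purple acid phosphatases in each library (points), with the mean and SD of 3 libraries (bars), *zmccd8* left of WT and WS, 0N and CT from left to right. The CT mean was highest in every panel except that of the GDPD1 gene Zm00001eb085150 in WT, and the 0N libraries of that gene were at 0.676 FPKM or less while its WS and CT libraries overlapped.

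The other phosphatases called against CT were mostly lower. Zm00001eb410860 (purple acid phosphatase 2) and Zm00001eb421880 (purple acid phosphatase 22), both on chromosome 10, were lower under WS in both genotypes (-1.01 to -1.35) and under 0N in *zmccd8* (-1.85 and -1.38). Their 0N calls were kept in 2 of 6 and 3 of 6 fits without 1 library, in that order. Zm00001eb105030 (inactive phosphatase 1) was lower under WS in WT (-1.10, lost without replicate 2 of CT). The inactive phosphatase 27 gene Zm00001eb369470 was the exception, with 4.95, 3.31 and 4.04 FPKM in WT under WS, against 0.897, 1.59 and 0.635 under CT (1.34, SE 0.22, adjusted p = 0.0051 in limma). The phosphatase with the highest mean, Zm00001eb010140 (purple acid phosphatase 4, plus strand of chromosome 1, 32017213 to 32020096), had 49.3 to 57.5 FPKM in the 6 WS libraries, against 78.4 to 115 in the 6 CT libraries, and its log2 differences of -0.60 and -0.87 stayed under the limit of 1. Zm00001eb387030, a phosphoenolpyruvate phosphatase of the same domain family, had 22.7 to 42.9 FPKM and was not called in any comparison with CT.

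The 11 genes of the APSR1 family, named after an *Arabidopsis* gene of root growth, had 7 tested and 1 called higher under WS in each genotype with limma, and 3 in each with voom. Of all 27530 features, voom called 2497 higher and 3649 lower under WS in *zmccd8*, and 2811 and 3677 in WT. Zm00001eb303290 (minus strand of chromosome 7, 20173017 to 20177886) had 38.5, 37.6 and 31.6 FPKM under WS, 31.3, 33.0 and 32.9 under 0N, and 17.0, 18.1 and 14.0 under CT in *zmccd8*. Levels in WT were 31.0, 30.7 and 31.6 FPKM under WS, 28.9, 29.7 and 31.9 under 0N, and 16.7, 15.3 and 14.1 under CT. All treated libraries were above all CT libraries of both genotypes, and the 4 log2 differences were 1.09, 0.97, 0.95 and 0.93 with adjusted p between 0.001 and 0.017 in limma, so that only the WS difference in *zmccd8* passed the limit of 1, and not without replicate 3 of CT. Zm00001eb321050 (minus strand of chromosome 7, 153737749 to 153743724) had 8.69, 8.60 and 12.4 FPKM in WT under WS, against 3.65, 3.35 and 2.84 under CT (1.33, SE 0.19), and 9.24, 7.52 and 7.99 FPKM in *zmccd8*, against 4.66, 3.36 and 3.18 (0.98, adjusted p = 0.0047 in limma). The other 5 tested genes of the family were not called by limma, and voom called 2 of them higher under WS, Zm00001eb331740 in *zmccd8* and Zm00001eb104210 in WT.

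In all, 33 of the 107 members did not pass the filter, among them 13 purple acid phosphatases and 8 PHT1 genes, and 9 were at 0 FPKM in all 18 libraries. The highest single value among these 33 was 1.69 FPKM. Because a gene can enter the filter through the group in which it is high, the test was also run over the 16620 features with a mean of at least 5 FPKM, 48 of them members. Of these, 4 were higher and 12 lower under WS in *zmccd8*, 3 and 13 in WT, 0 and 15 under 0N in *zmccd8*, and 1 and 13 in WT. Over the 16620 features, 6.28% were higher and 11.0% lower under WS in *zmccd8*, 7.56% and 11.3% in WT, 1.94% and 7.06% under 0N in *zmccd8*, and 2.73% and 3.63% in WT.

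WS and 0N roots were also set against each other directly, a comparison added after the data were seen. In *zmccd8*, 9 members were higher and 4 lower under WS than under 0N (12.2% and 5.41%), against 9.53% and 8.38% of all features. In WT, 5 were higher and 8 lower (6.76% and 10.8%), against 7.41% and 9.31%. The members' shares were near those of all features, so these counts are no result about the members as a set. The 5 higher in both genotypes were *pht7* (log2 differences 3.53, SE 0.22 in *zmccd8* and 2.85, SE 0.32 in WT), *pht3* (3.39 and 2.99), the SPX membrane proteins Zm00001eb250590 (4.28 and 3.50) and Zm00001eb073510 (2.001 and 2.13) and the GDPD1 gene Zm00001eb085150 (1.89 and 1.997). The 4 lower in both were *pht9* (-6.41, SE 0.38 and -5.15, SE 0.41) with its partner Zm00001eb004110, GDPD2 (-2.28 and -1.62) and the PHR3 gene Zm00001eb232000 (-1.48 and -2.09). The difference between the 2 treatments was itself past the test in both genotypes for *pht9* and *pht7*, whose patterns had already been seen. It was also past it for *pht3*, which passed the filter through its WS libraries alone. Called in *zmccd8* alone were SPX6, an SPX1 gene (Zm00001eb205600), GDPDL3 (Zm00001eb245640) and purple acid phosphatase 20 (Zm00001eb406620), all higher, of which SPX6 was kept in 2 of 6 fits without 1 library and GDPDL3 in 1 of 6, and in WT alone Zm00001eb010140, Zm00001eb105030, GDPDL7 (Zm00001eb206420) and Zm00001eb227200, all lower. Whether the genotypes differ in these was not tested.

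Between the genotypes, 1 member stood out. Purple acid phosphatase 2 (Zm00001eb151650, plus strand of chromosome 3, 196845849 to 196850079) had 19.3, 12.6 and 19.3 FPKM in *zmccd8* under WS, against 6.23, 4.76 and 7.16 in WT. It had 19.8, 22.4 and 19.4 FPKM in *zmccd8* under 0N, against 8.51, 7.81 and 6.91 in WT, and 49.5, 28.0 and 48.9 FPKM in *zmccd8* under CT, against 12.1, 24.1 and 16.5 in WT. The genotypes did not overlap in any condition. The log2 differences were 1.35 (SE 0.21, adjusted p = 0.034) under WS, 1.301 (SE 0.13, adjusted p = 0.005) under 0N and 1.22 (SE 0.30, adjusted p = 0.23) under CT in limma, so that 1 of the 74 tested members was called higher under WS and 1 under 0N, and 0 lower in either. Over all features, 0.487% were higher and 0.414% lower under WS, 0.683% and 0.89% under 0N, and 0.436% and 0.4% under CT. The call under WS was kept only in the fit without replicate 2 of *zmccd8* under WS, with 0 members called in each of the other 5 fits, and the call under 0N in all 6. With the replicate number added to the fit, the call under 0N was lost (adjusted p = 0.072 in limma). The gene lies in a stretch of chromosome 3, 140 to 210 Mb, that also holds *ZmCCD8* and in which 11.2% of tested features were called between the genotypes under WS, 14.6% under 0N and 11.3% under CT, against 0.462%, 1.02% and 0.386% elsewhere. A second tested member there, purple acid phosphatase 16 (Zm00001eb141530, 154095565 to 154097298), had 0.783 to 2.14 FPKM in *zmccd8* under WS, against 2.17 to 3.84 in WT, 0.115 to 0.673 under 0N, against 1.23 to 2.29, and 0.910 to 1.09 under CT, against 1.63 to 4.33. Its genotypes did not overlap in any condition, and its log2 differences of -0.78, -1.09 and -0.86 were not called by limma. Being in that stretch and an effect of the mutation cannot be told apart here. The called gene, Zm00001eb151650, was lower under WS than under CT in both genotypes (-1.24, SE 0.26 in *zmccd8* and -1.36, SE 0.26 in WT).

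Under CT, 0 members were called between the genotypes in limma (8 had an unadjusted p under 0.05), 0 with voom on rebuilt reads and 1, Zm00001eb151650, with all 18 libraries in one fit. Over all features, voom called 232 and that fit 292. The PHO1-2 gene Zm00001eb258520, singled out here after its values were seen, had lower FPKM in *zmccd8* in each condition, without overlap. It had 140, 123 and 98.1 FPKM in *zmccd8* under WS, against 181, 187 and 158 in WT, 91.3, 125 and 125 under 0N, against 194, 149 and 186, and 129, 131 and 104 under CT, against 151, 185 and 176. The log2 differences of -0.55, -0.63 and -0.49 did not pass (adjusted p = 0.20, 0.11 and 0.49 in limma). PHO1-1 (Zm00001eb126380, on chromosome 3, 29036645 to 29042360) also had lower FPKM in each condition without overlap, with 1.07 to 3.66 FPKM in *zmccd8* and 2.11 to 5.58 in WT, and was not called.

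No member was called for an interaction of genotype with WS or with 0N (limma, lowest adjusted p = 0.45 and 0.17), where 3 and 9 of the 74 had an unadjusted p under 0.05. Over all features 0.0218% were called for the interaction with WS and 0% for that with 0N. No member was called for either in any of the alternatives, voom on rebuilt reads included. A difference in response between the genotypes was not detectable with 3 libraries a group, which does not show that the responses were equal.

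**Figure D5:**
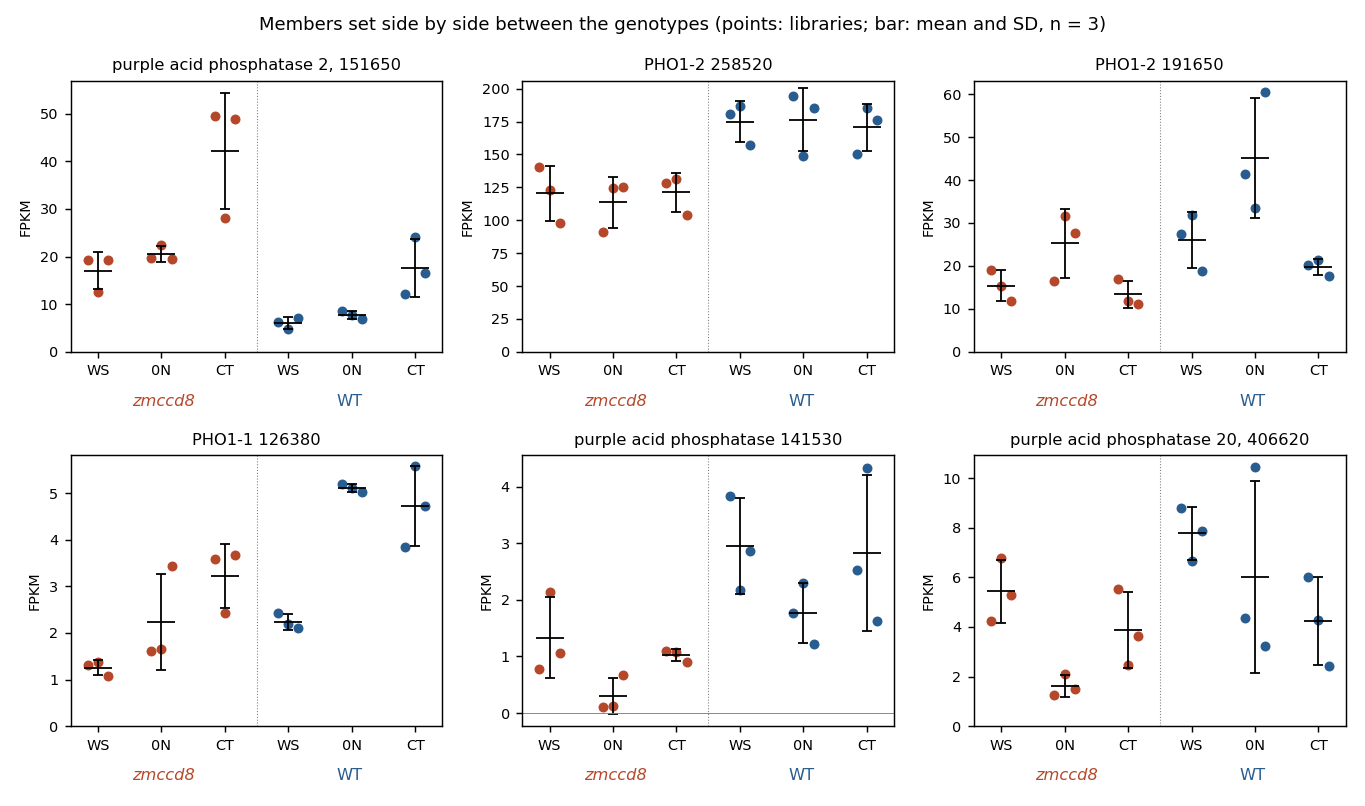
FPKM of 3 purple acid phosphatases and 3 PHO1 genes in each library (points), with the mean and SD of 3 libraries (bars), *zmccd8* left of WT and WS, 0N and CT from left to right. Phosphatase Zm00001eb151650 lay above WT in *zmccd8* in every condition and was called under WS and 0N, PHO1-2 gene Zm00001eb258520 lay below WT in every condition without being called, and the genes Zm00001eb406620 and Zm00001eb141530 lay below WT in *zmccd8* under 0N, also without being called.

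Further genes of phosphate handling outside the 107 were read from lists fixed by description, each short enough that single genes set its share. Of 6 tested regulators, 4 were lower and 0 higher under WS in *zmccd8*, and 3 and 0 in WT. Under 0N, 3 were lower and 1 higher in *zmccd8*, and 3 and 0 in WT. Over all features, 10.3% were lower and 6.24% higher under WS in *zmccd8*, and 10.4% and 7.41% in WT. Under 0N these shares were 5.63% and 1.74% in *zmccd8*, and 2.82% and 1.94% in WT. The regulators include NIGT1 and HHO6, nitrate-induced repressors, and ubiquitin-conjugating enzyme E2 24, the counterpart of *Arabidopsis* PHO2 that marks phosphate transporters for removal. HHO6 (Zm00001eb058460) had 1.83, 0.965 and 2.38 FPKM in *zmccd8* under 0N, against 24.3, 22.2 and 35.6 under CT, and 5.58, 4.42 and 1.46 FPKM in WT, against 22.4, 23.9 and 21.7 under CT. E2 24 (Zm00001eb430230) had 34.2, 28.7 and 26.4 FPKM in *zmccd8* under WS, against 75.7, 102 and 72.9 under CT, and 29.9, 32.1 and 22.8 FPKM in WT, against 79.6, 115 and 106. In both genes the groups did not overlap, and each of these differences was called (log2 differences -3.39 and -2.41 for HHO6, -1.45 and -1.79 for E2 24).

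Of 16 other phosphate carriers tested, 4 were higher and 2 lower under WS in *zmccd8*, and 5 and 1 in WT. Over all features, 6.24% were higher and 10.3% lower in *zmccd8*, and 7.41% and 10.4% in WT. Mitochondrial phosphate carrier 3 (Zm00001eb314770) had 117, 144 and 140 FPKM in *zmccd8* under WS, against 12.9, 14.7 and 14.6 under CT, and 101, 98.1 and 174 FPKM in WT, against 14.1, 17.2 and 7.90. The groups lay far apart (log2 differences 3.16, SE 0.12 and 3.16, SE 0.33, adjusted p = 1.2e-05 and 0.00086 in limma). Of 17 enzymes of lipid remodelling, 2 were lower and 0 higher under WS in each genotype, 1 was lower and 0 higher under 0N in *zmccd8*, and 1 lower and 1 higher in WT. The WS counts were near the 10.3% and 10.4% of all features called lower. MGDG synthase 2 (Zm00001eb034810), which makes a galactolipid, was the one lower in all 4, with 0.417 to 1.33 FPKM under WS and 0.0335 to 0.0736 under 0N, against 7.81 to 19.7 under CT in *zmccd8*, and 0.0769 to 1.40 and 0 to 0.0307 FPKM, against 3.56 to 25.8 in WT. Non-specific phospholipase C4 (Zm00001eb064750) was lower under WS in both genotypes (-2.17 and -2.02) and higher under 0N in WT (1.35, SE 0.17). Of 10 further scavenging enzymes, 1 was lower under WS in each genotype, 1 was higher under WS in *zmccd8*, and 2 were lower under 0N in *zmccd8* and 1 in WT, with the WS counts again near the share of all features. Soluble inorganic pyrophosphatase (Zm00001eb348520) was lower in all 4 comparisons, with 60.1 to 88.2 FPKM under WS and 67.9 to 81.3 under 0N, against 231 to 428 under CT in *zmccd8*, and 61.6 to 86.3 and 73.4 to 84.5 FPKM, against 260 to 392 in WT. Between the genotypes, 2 genes of the 4 lists were called by limma, both lower in *zmccd8* under 0N and both within the chromosome 3 stretch named above. Non-specific phospholipase C2 (Zm00001eb140620, 149741549 to 149743965) had 3.46, 4.21 and 6.18 FPKM in *zmccd8*, against 15.2, 16.5 and 13.2 in WT (-1.53, SE 0.21, adjusted p = 0.019 in limma). Inorganic pyrophosphatase 2 (Zm00001eb154650, 207448014 to 207449319) had 0.0230, 0.202 and 0.218 FPKM in *zmccd8*, against 1.66, 2.73 and 2.78 in WT (-1.55, SE 0.19, adjusted p = 0.013 in limma), and neither gene's groups overlapped.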

How the data were processed

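Messenger RNA of maize roots was measured in 18 strand-specific libraries, 3 for each of 6 groups, mapped by label. The authors filtered reads with fastp, aligned them to the B73 reference with HISAT2 2.0.5, assembled further transcripts with StringTie, counted with featureCounts and deposited FPKM values computed from these counts. Their DESeq2 results are not used here. Coordinates are those of the deposited table on that reference, and symbols (83 matched) come from RefSeq.

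Members and lists were chosen with earlier results of these data known. The 27530 features that reached 1 FPKM in 3 or more of the 18 libraries were tested on log2(FPKM + 1) in limma 3.58.1 (R 4.3.3), two-sided, with a variance trend, Benjamini-Hochberg adjustment over those features, and only the groups compared in each fit. A call needed an adjusted p not above 0.05 and a log2 difference of at least 1 in size, and p-values measure the spread between the libraries labelled as biological replicates. FPKM times gene length gave whole reads for 100% of values (tolerance 0.01). Their sums were used for depth and for limma voom as an alternative. Depth limits the precision of genes with few reads only, and beyond that the 3 libraries a group do. Tested on simulated data for 0N against CT in WT (27530 features, 200 changed by a log2 difference of 2), the procedure recovered 162 with 1 false call. The simulated noise was normal and independent between libraries, and the changed features had a mean log2(FPKM + 1) above 2. This result therefore does not give the error rate in the real libraries.

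Named are members called in any comparison of the study's design and, in each role, the one of highest mean, and at most 3 called genes of each further list. Other named members, such as the second SQD2 gene, PHO1-1 and those called by voom only, were chosen after their values were seen. Residuals of libraries with the same replicate number correlated at 0.135, 0.224 and 0.253 for WS against CT in *zmccd8*. In *zmccd8* the values were 0.181, 0.199 and 0.234 for WS against 0N, and 0.143, 0.390 and 0.096 for 0N against CT. They were 0.013, -0.066 and 0.12 for 0N against CT in WT, and -0.103, -0.293 and -0.388 between the genotypes under 0N. Libraries of different numbers were not compared, so these values do not show whether the numbers pair libraries. The main fits did not use the replicate number. Alternatives were a pseudocount of 0.1, no filter, a mean of at least 5 FPKM, all libraries in one fit, median-of-ratios scaling, no variance trend, a replicate block, voom, calls by adjusted p without the size limit, and each library left out in turn. The promoters and proteins of the members were not analysed here.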

Additional observations from a re-analysis of the deposited data

How the results depend on the processing

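The direction of every called member held under every alternative run, and 0 of the 103 member calls reversed. Rescaling by the median of ratios and fitting all 18 libraries together kept all 103, while voom on rebuilt reads kept 102, no variance trend 102, the pseudocount of 0.1 101 and no filter on low values 73. The counts of members called moved by over 1.5 times in these cases. Without the limit on size there were 25 under 0N in *zmccd8*, 48 under WS in *zmccd8*, 2 for *zmccd8* against WT under WS, and for WS against 0N 38 in *zmccd8* and 28 in WT. Counts over all features were not taken without that limit. Without a filter there were 5 under 0N in *zmccd8*, 5 under 0N in WT and 0 for *zmccd8* against WT under WS, where more features enter the adjustment. Of all 40181 features then tested, 182, 544 and 139 were called, in the same order. The pseudocount of 0.1 gave 2 for *zmccd8* against WT under WS and 22 for WS against 0N in *zmccd8*, and voom gave 21 for the last. Over all features that pseudocount gave 306 calls for *zmccd8* against WT under WS. For WS against 0N in *zmccd8* it gave 6519, and voom gave 6493. All 18 libraries in one fit gave 3 for *zmccd8* against WT under 0N and 1 under CT. Over all features that fit called 484 higher and 959 lower under 0N, against 188 and 245 in the main fit. Under CT it called 139 higher and 153 lower, against 120 and 110. The cause was not tested, and the alternatives for WS against 0N were chosen after seeing the data.

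Leaving out 1 library gave 4 to 21 calls under 0N in *zmccd8* and 4 to 9 in WT, 18 to 22 under WS in *zmccd8* and 19 to 24 in WT, 1 to 3 between the genotypes under 0N and 0 to 1 under WS, 13 to 15 for WS against 0N in *zmccd8* and 12 to 14 in WT, and 0 for both interactions and under CT between the genotypes. With the replicate block, the calls numbered 7 under 0N in WT (16 without it) and 0 between the genotypes under 0N (1 without it). Over all features under 0N in WT, 268 were higher and 333 lower with the block, against 535 and 776 without it. Between the genotypes under 0N, 76 were higher and 55 lower with it, against 188 and 245 without it. Whether the replicate numbers pair libraries is not known. For WS against CT and WS against 0N in *zmccd8*, the block kept every member call. Members under about 1 FPKM, such as SPX3 under 0N, rest on a few reads.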

Other observations

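The phrases also matched 24 rows outside the rule, 22 single transcripts of annotated genes and 2 transcripts assembled by the authors, and 1 of these passed the filter. That transcript lies on chromosome 1, 160774383 to 160775802, and was matched to the probable inactive purple acid phosphatase 24. It had 3.64, 2.48 and 4.44 FPKM under WS, 6.86, 7.76 and 8.75 under 0N, and 11.5, 7.69 and 8.97 under CT in *zmccd8*, and 4.05, 2.89 and 2.63, then 23.1, 19.6 and 17.9, then 13.3, 14.6 and 14.9 FPKM in WT. It was lower under WS than under CT in both genotypes (log2 differences -1.21, SE 0.22 and -1.88, SE 0.17, adjusted p = 0.0057 and 5e-04 in limma). It was lower in *zmccd8* than in WT under 0N (-1.27, SE 0.15, adjusted p = 0.01 in limma), with no overlap, and the interaction of genotype with 0N was -0.70 with adjusted p = 0.19.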
